A study of Mus musculus with 9 samples.

Results

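DNA replication and mitosis follow each other in every dividing cell, and 46 genes of these processes were followed here in mouse myeloid cells: 26 genes of replication and 20 genes of mitosis, out of the 54532 genes in the deposited table. The members were taken from a list of gene symbols, each matched to its Ensembl identifier, by a rule that uses no measured value. The list itself was chosen with earlier results of these data known. All 46 were found, and all 46 reached 1 FPKM or more in at least 3 libraries, the level asked of a gene before it was tested. FPKM values are fragments divided by exon length and by the size of the library, so they can be compared between genes of different length.

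The 9 libraries were made from total RNA of cells labelled as myeloid, from C57BL/6 mice aged 6 to 8 weeks, in 3 groups of 3. The groups fl and Gr_1 carried the genotype label wild type, and the group KO carried the label SOCS3 KO. Socs3 encodes a feedback inhibitor of cytokine signalling through STAT3. The labels spell out neither fl nor Gr_1, name no promoter or Cre line for the deletion, and do not state that a group's libraries came from separate animals, so p-values reflect only the spread between these samples, which in fl and Gr_1 may be technical. KO A and KO B differed in sex-linked transcripts, as given with the library facts, and so were not repeats of 1 animal's RNA.

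Before a cell copies its DNA, the origin recognition complex, Cdc6 and Cdt1 load the ring-shaped Mcm helicase onto origins, and Cdc45 and the GINS complex then switch it on. Transcription of these genes rises towards S phase under E2F factors, while most mitosis genes peak later, in G2 and mitosis, under the MuvB complex with B-Myb and FoxM1. In bone marrow, early granulocyte precursors divide, and division ends as cells mature into neutrophils.

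The promoters of the members are shown first because the replication and mitosis genes are known for different control elements. RefSeq promoters on GRCm38.p6, each 250 bases before to 50 bases after a start, were at hand for 38 of the 46 members, 21 of replication and 17 of mitosis. Mcm4, Gins1, Gins2, Pole, Ccne2, Ccna2, Cdc25c and Aurkb had no entry. The words searched, on both strands, were TTTCCCGC, TTTCGCGC, TTTGGCGC and TTTGCCGC for E2F, TTTGAA for the cell cycle homology region (CHR) that the MuvB complex binds, and CCAAT for NF-Y. E2F words on opposite strands can overlap each other.

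An E2F word stood in 9 of the 21 replication promoters (42.9%) and in 1 of the 17 mitosis promoters (5.88%), that of Cdk1, against 2.61% of the 27025 genes with a promoter. The CHR word stood in 12 of 17 mitosis promoters (70.6%) and in 3 of 21 replication promoters (14.3%), against 20.2% of all genes. CCAAT stood in 16 of 17 mitosis promoters (94.1%), in 15 of 21 replication promoters (71.4%) and in 41.1% of all genes, and all 12 mitosis promoters with the CHR word also held CCAAT, where 7.97% of all genes held both. A match is a description of letters and not a binding site.

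Printed below, 5′ to 3′ on the strand of the gene and with the words found in capitals, are bases that lie close before the start. All lie outside every exon of the GENCODE M21 annotation. For Cdk1 and Cdc20 the bases next to the start were therefore left out. These held a CHR word of Cdk1, 15 bases before the start, and a CCAAT word of Cdc20, 8 bases before it. The replication promoters with E2F words are those of Mcm5 and Mcm6, subunits of the helicase, at chr8:75109349-75109508 and chr1:128359706-128359865, and of Cdc6, at chr11:98907991-98908150, which lies in an intron of a longer Cdc6 transcript.
Mcm5: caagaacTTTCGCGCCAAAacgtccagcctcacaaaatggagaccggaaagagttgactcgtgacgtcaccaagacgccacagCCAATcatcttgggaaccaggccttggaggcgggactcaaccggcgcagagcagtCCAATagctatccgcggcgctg
Mcm6: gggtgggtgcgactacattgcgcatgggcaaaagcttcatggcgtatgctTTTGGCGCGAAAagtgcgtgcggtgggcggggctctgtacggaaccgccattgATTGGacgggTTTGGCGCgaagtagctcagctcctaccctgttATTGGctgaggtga
Cdc6: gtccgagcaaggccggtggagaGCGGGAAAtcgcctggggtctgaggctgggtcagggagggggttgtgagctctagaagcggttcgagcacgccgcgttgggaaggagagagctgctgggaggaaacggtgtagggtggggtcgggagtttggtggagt
Cdk1, the kinase that starts mitosis, held E2F, CHR and CCAAT words together at chr10:69352939-69353072. Next to it stand 4 mitosis promoters with CHR and CCAAT words and no E2F word: those of Cdc20, an activator of the anaphase-promoting complex, at chr4:118437353-118437503, of Mki67, which coats mitotic chromosomes, at chr7:135716380-135716539, of Top2a, which untangles DNA, at chr11:99024190-99024349, and of Kif11, a spindle motor, at chr19:37376222-37376381.
Cdk1: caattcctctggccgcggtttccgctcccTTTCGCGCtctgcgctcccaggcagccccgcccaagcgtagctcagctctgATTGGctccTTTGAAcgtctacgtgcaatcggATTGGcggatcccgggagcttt
Cdc20: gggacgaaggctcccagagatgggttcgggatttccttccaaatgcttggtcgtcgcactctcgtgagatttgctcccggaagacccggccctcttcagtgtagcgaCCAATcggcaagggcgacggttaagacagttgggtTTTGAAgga
Mki67: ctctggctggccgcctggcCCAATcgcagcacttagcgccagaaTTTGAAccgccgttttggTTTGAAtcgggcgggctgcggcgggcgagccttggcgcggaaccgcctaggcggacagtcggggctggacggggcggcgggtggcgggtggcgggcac
Top2a: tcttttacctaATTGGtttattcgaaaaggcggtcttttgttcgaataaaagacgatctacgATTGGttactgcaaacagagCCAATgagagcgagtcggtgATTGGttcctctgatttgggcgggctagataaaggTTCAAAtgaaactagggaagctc
Kif11: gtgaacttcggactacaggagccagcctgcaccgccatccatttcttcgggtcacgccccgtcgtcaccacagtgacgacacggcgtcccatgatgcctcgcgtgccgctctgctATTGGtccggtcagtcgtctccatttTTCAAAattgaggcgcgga
The last pair belongs to E2f2 and Cdc25b, the 2 members that were higher in Gr_1. The stretch of E2f2, an activating E2F factor, at chr4:136172114-136172273, and that of Cdc25b, a phosphatase that activates Cdk1, at chr2:131186788-131186947, held a CCAAT word each and no E2F or CHR word within the bases printed. The full windows of E2f2 do hold both: an E2F word after the start of the same promoter, and a CHR word before its other RefSeq start, so E2f2 is among the 9 and the 3 replication promoters counted above. Cdc25b held neither word in its full window.
E2f2: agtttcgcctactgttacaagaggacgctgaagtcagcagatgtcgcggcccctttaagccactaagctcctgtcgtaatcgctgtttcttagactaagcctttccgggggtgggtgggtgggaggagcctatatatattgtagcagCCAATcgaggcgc
Cdc25b: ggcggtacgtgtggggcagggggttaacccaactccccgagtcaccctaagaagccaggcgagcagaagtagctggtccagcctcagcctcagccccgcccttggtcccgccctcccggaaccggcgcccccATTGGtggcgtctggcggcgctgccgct

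Some facts of the libraries bear on all results. Recovered depth was 18.3 to 21.5 M fragments per library, and a member rested on between 54 fragments (Orc1) and 15457 fragments (Mki67). Socs3 itself stood at 3.76 ± 0.318 FPKM in fl, 8.12 ± 1.25 in KO and 35.5 ± 2.21 in Gr_1 (mean ± SD, n = 3), and was thus higher and not lower in KO than in fl (log2 change 0.93 ± 0.11 SE, adjusted p = 0.00136). A value over a whole gene does not show which part of it was read, and KO names here only the libraries labelled so. KO A held Y-linked transcripts (a sum of 26.5 FPKM over 4 genes) and almost no Xist, KO B held Xist (58.5 FPKM) and no Y-linked transcripts, and KO C held both (Xist 26.3 FPKM, Y-linked 14.2). Whether KO C holds RNA of more than 1 animal was not tested, and counts of members called are given with and without it. Every fl and Gr_1 library held Y-linked transcripts, with Xist at 0.0104 FPKM or less. KO C was also the middle of the 3 libraries labelled KO in 30 of the 46 members, and in 61.4% of all genes tested, where no other library of the series was the middle one in over 44.1%.

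The labelled cell type was checked against marker lists. Genes of the secondary granules of neutrophils (Ltf, Camp, Ngp, Lcn2, Chil3 and Cebpe) summed to 23456 to 28605 FPKM in fl, 25662 to 35148 in KO and 48967 to 51003 in Gr_1. Early granulocyte genes (Elane, Mpo, Prtn3, Ctsg and Ms4a3) summed to 3795 to 5654 FPKM in fl, 3103 to 6571 in KO and 187 to 295 in Gr_1. Late neutrophil genes, among them Mmp9, Cxcr2 and Stfa2l1, ran the other way, with sums of 542 to 568, 1308 to 3108 and 9781 to 10730 FPKM. Monocyte genes summed to 1052 to 1176, 697 to 722 and 431 to 479 FPKM in the same order, and early B cell genes to 67.1 to 86.2, 44.6 to 86.4 and 330.3 to 359 FPKM. By the test described below, all 8 late neutrophil genes were called higher in Gr_1 than in fl (30.0% of all genes tested). All 8 were also called higher in the libraries labelled KO than in fl (551 of the 12289 genes tested). All 5 early granulocyte genes were called lower in Gr_1 than in fl (31.4% of all genes tested). Basophil and mast cell genes summed to 41.4 to 84.7, 139.9 to 193 and 37.4 to 67.6 FPKM, and erythroid genes to 13.4 to 43.3, 62.8 to 70.5 and 46 to 129.6 FPKM. Macrophage genes summed to 178 to 184 FPKM in fl, 107 to 128 in KO and 121 to 132 in Gr_1, and plasma cell genes to 19.1 to 27.0, 24.5 to 33.0 and 52.5 to 70.8 FPKM. Progenitor genes summed to 18.5 to 26.5 FPKM in fl, 31.8 to 44.5 in KO and 14.0 to 18.4 in Gr_1, NK cell genes to 5.02 to 7.4, 10.2 to 22.1 and 1.91 to 2.64 FPKM, and T cell genes to 0.915 to 1.87, 6.39 to 7.90 and 4.61 to 5.87 FPKM. Progenitor, NK cell and T cell sums were thus higher in every KO library than in every fl library. No marker was at 0 in every library. In such bulk samples, fewer cells of a type and less RNA per cell cannot be told apart. The part of these cell types in the results on replication and mitosis genes was not tested.

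Summed over the 26 replication genes, the level was 971, 929 and 992 FPKM in fl A, B and C, 872, 996 and 929 FPKM in KO A, B and C, and 649.7, 613 and 536 FPKM in Gr_1 A, B and C. Every Gr_1 library thus lay below every other library, while the fl libraries and those labelled KO overlapped. The 20 mitosis genes summed to 784, 751 and 758 FPKM in fl, to 765, 758 and 754 FPKM in KO, and to 667, 671 and 632 FPKM in Gr_1. Here too every Gr_1 library lay lowest. The ratio of the replication sum to the mitosis sum, which no scaling of a library can change, was 1.24, 1.24 and 1.31 in fl, 1.14, 1.31 and 1.23 in KO, and 0.974, 0.913 and 0.849 in Gr_1. The replication genes together exceeded the mitosis genes in all 6 libraries of fl and KO and fell short of them in all 3 of Gr_1. By the median log2(FPKM + 1) of a list, mitosis genes stood higher in every library. Group means of that median were 5.20 against 4.64 for replication in fl, 5.13 against 4.56 in KO and 4.81 against 3.79 in Gr_1. Which list stood higher thus depended on the measure.

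**Figure D1:**
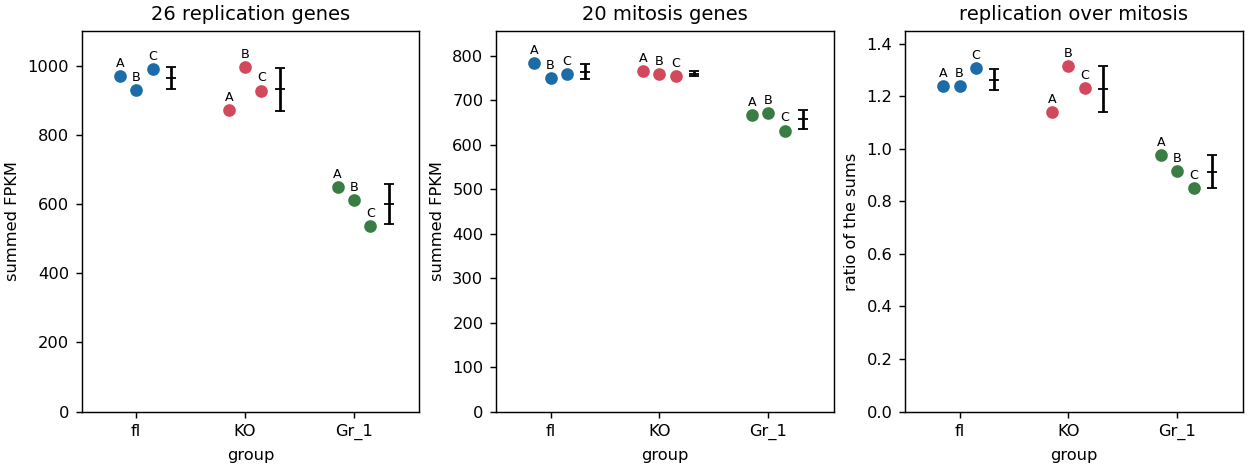
Summed FPKM of the 26 replication genes (left) and the 20 mitosis genes (middle) and the ratio of these sums (right), by group on the horizontal axis, with a point for each library (letters A, B and C) and a black bar for the mean ± SD of 3 libraries. Replication sums lie at 536 to 649.7 FPKM in Gr_1 and at 872 to 996 FPKM elsewhere, and the ratio lies under 1 only in Gr_1.

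Gr_1 was compared with fl first, as both groups were labelled wild type. Of the 26 replication genes, 24 were lower in Gr_1 and 1, E2f2, was higher, and Pola1 did not pass the test. Of the 20 mitosis genes, 9 were lower, 1, Cdc25b, was higher, and 10 did not pass. The calls rest on limma with log2(FPKM + 1) and an adjusted p (Benjamini-Hochberg, 12289 genes) of less than 0.05. By that rule 31.4% of all genes tested were lower and 30.0% higher, a background against which these counts are to be read. The fl and Gr_1 libraries did not overlap in 8290 of the 12289 genes tested. They did not overlap in 25 of the 26 replication genes and in 11 of the 20 mitosis genes. The median log2 change was -0.69 over the replication genes, -0.18 over the mitosis genes and -0.03 over all genes tested. Scaled to library totals instead, the median of all genes moved to -0.26. On that scale 15 mitosis genes were lower, where 5925 of the 12289 genes tested were. Yet the medians relative to all genes were -0.71 for replication and -0.21 for mitosis, against -0.66 and -0.15 as deposited. Folds are given as the ratio of group means in FPKM, and log2 changes on the log2(FPKM + 1) scale of the fit, which understates the change of low genes.

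**Figure D2:**
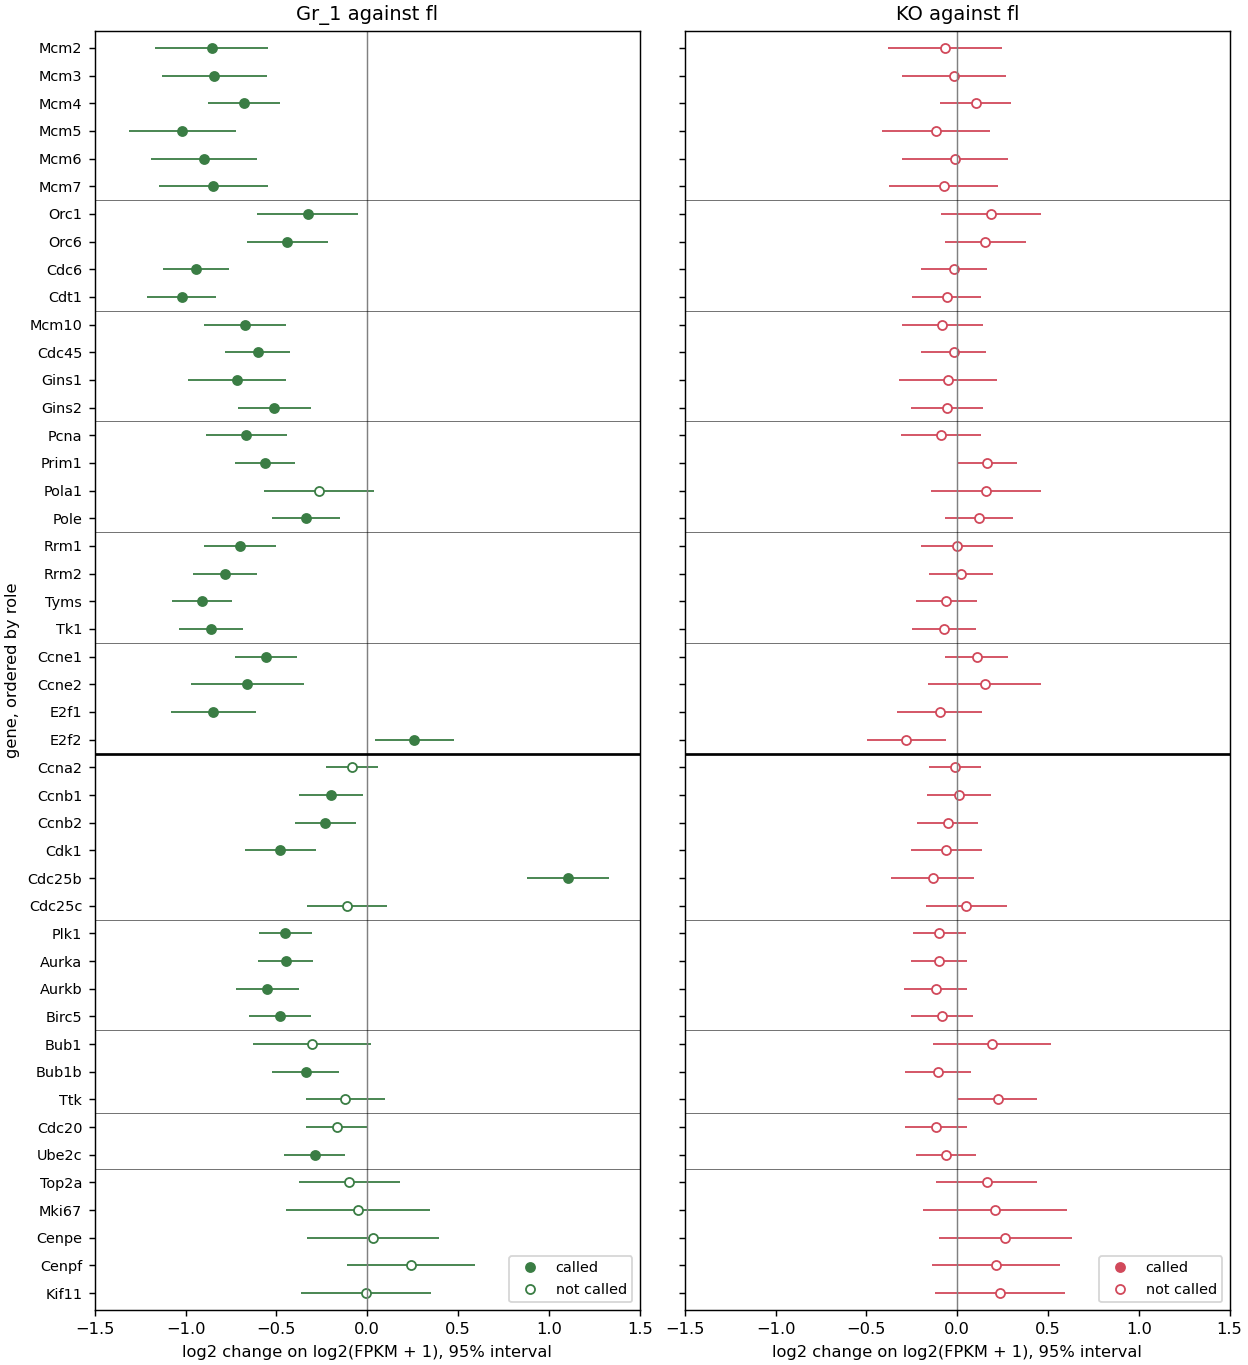
Log2 change of each member (points) with its 95% interval (lines) for Gr_1 against fl on the left and the libraries labelled KO against fl on the right, ordered by role, with replication genes above the thick line and mitosis genes under it. Filled points passed the test: 24 replication and 9 mitosis genes lie to the left of 0 for Gr_1, E2f2 and Cdc25b to the right, and no point is filled for KO. The panels share the 3 fl libraries.

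Mcm2 to Mcm7, the 6 subunits of the replicative helicase, were all lower in Gr_1, by 1.63-fold (Mcm4) to 2.05-fold (Mcm5). Mcm5, on chromosome 8 at 75109569 to 75128439 (GRCm38), stood at 86.9, 80.0 and 109 FPKM in fl, 78.3, 90.1 and 83.8 in KO, and at 50, 45.6 and 38.5 in Gr_1. The highest Gr_1 value lay below the lowest of the other 6 (log2 change from fl -1.02 ± 0.13 SE, adjusted p = 0.000185). As a set, the 6 subunits summed to 346 ± 31.5 FPKM in fl, 336 ± 32.4 in the libraries labelled KO and 186 ± 25.4 in Gr_1 (mean ± SD, n = 3). Mcm5 was the most abundant and Mcm2 the least abundant of the 6 in each group.

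The 4 genes of origin recognition and helicase loading were lower as well, by 1.40-fold (Orc6) to 2.1-fold (Cdt1). Cdt1, which brings the helicase to the origin, stood at 31.4, 28.7 and 32.1 FPKM in fl, 26.8, 30.9 and 31.0 in the KO-labelled libraries, and at 15.4, 15.1 and 13.4 in Gr_1. Again all Gr_1 libraries lay below all others (log2 change -1.02 ± 0.08 SE, adjusted p = 1.52e-05). Cdc6, the loading ATPase, stood at 12, 11.7 and 12.1 FPKM in fl, 10.9, 12.9 and 11.6 in KO, and at 6.17, 5.86 and 5.19 in Gr_1, a 2.08-fold lower mean than in fl (adjusted p = 1.86e-05). Orc1, the least abundant member, stood at 1.84 ± 0.257 FPKM in fl and 1.26 ± 0.254 in Gr_1. Its call (log2 change -0.33 ± 0.12 SE, adjusted p = 0.0415) was lost in 5 of the 9 fits that left out 1 library. Those of the 9 without a library of the group not compared, here KO, left the change itself as it was. They altered only its spread and the set of genes tested.

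Helicase activation, the step in which Cdc45 and GINS join Mcm2 to Mcm7 with the help of Mcm10, was represented by 4 genes, all lower in Gr_1. Mcm10 was lower by 1.74-fold, Gins1 by 1.71-fold, and Gins2 and Cdc45 by 1.55-fold each. Cdc45 stood at 26.6, 24.7 and 28.4 FPKM in fl, 25.5, 27.2 and 25.9 in the KO-labelled libraries and at 18.8, 17 and 15.7 in Gr_1, so that again the groups fl and Gr_1 did not overlap.

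Among the genes that copy the strands, Pcna, the sliding clamp, was the most abundant member, at 182, 176 and 158 FPKM in fl, 149, 176 and 159.9 in KO and 118, 109 and 97.6 in Gr_1 (log2 change from fl -0.67 ± 0.10 SE, adjusted p = 0.000393). Prim1, the primase subunit that makes RNA primers, was lower by 1.54-fold, and Pole, the leading-strand polymerase, by 1.34-fold. Pola1, the polymerase that extends the primers, stood at 5.02, 4.94 and 3.28 FPKM in fl and at 3.59, 3.54 and 3.23 in Gr_1. The low value of fl C overlapped Gr_1, and the difference did not pass (log2 change -0.26 ± 0.13 SE, adjusted p = 0.113). Without fl C it did (log2 change -0.43, adjusted p = 0.00306).

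All 4 genes of nucleotide supply were lower, by 1.66-fold (Rrm1) to 2.03-fold (Tyms). Tyms, which makes thymidylate, stood at 11.6, 10.8 and 12.5 FPKM in fl, 10.7, 11.1 and 11.5 in KO, and at 5.90, 6.00 and 5.25 in Gr_1 (log2 change -0.91 ± 0.07 SE, adjusted p = 1.44e-05). Rrm2, the S phase subunit of ribonucleotide reductase, stood at 134, 133 and 131 FPKM in fl, 125, 145 and 134 in the KO-labelled libraries, and at 81.3, 78.2 and 70.5 in Gr_1 (log2 change -0.78 ± 0.08 SE, adjusted p = 4.18e-05). In both genes Gr_1 lay wholly below the rest. Tk1, thymidine kinase, was lower by 1.87-fold.

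The factors of the G1/S step changed in both directions. Ccne1 and Ccne2, the E-type cyclins, were lower in Gr_1 by 1.55-fold and 1.72-fold, and E2f1, an activating E2F factor, by 1.87-fold. E2f1 stood at 21.7, 21.6 and 26.7 FPKM in fl, 20.4, 22.1 and 22.5 in KO, and at 14.1, 12.1 and 11.4 in Gr_1. Its relative E2f2 ran the other way, with 76.8, 69.0 and 80.4 FPKM in fl, 69.0, 55.7 and 61.2 in KO, and 96.6, 89.9 and 84.8 in Gr_1. All Gr_1 values of E2f2 lay above all others, but the call against fl (log2 change 0.26 ± 0.10 SE, adjusted p = 0.0415) was lost in 5 of the 9 fits without 1 library. It was also lost with quantile normalization, without the 10 most abundant genes, without the filter on level, and without fl C and KO C together. With library totals as the scale the change was -0.03 (adjusted p = 0.721). E2f2 exceeded E2f1 in mean FPKM in each group, at 75.4 against 23.3 in fl and 90.4 against 12.5 in Gr_1.

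Mitosis genes also changed in both directions. Among the cyclins and their kinase, Cdk1 was lower by 1.42-fold, with 29.9, 29.8 and 36.0 FPKM in fl, 29.0, 32.8 and 29.5 in KO and 23.2, 22.1 and 22.2 in Gr_1 (log2 change -0.48 ± 0.09 SE, adjusted p = 0.00124). Ccnb2, a B-type cyclin, stood at 87.1, 83.5 and 93.3 FPKM in fl and 78.9, 77.3 and 68.4 in Gr_1. Its call, at 1.18-fold lower (adjusted p = 0.0225), was lost in 3 of the 9 fits without 1 library, and that of Ccnb1, at 1.15-fold lower (adjusted p = 0.0497), in 7 of 9. Ccna2, the cyclin of S phase and early mitosis, stood at 39.8 ± 1.45 FPKM in fl and 37.5 ± 1.90 in Gr_1 and did not pass (95% interval of the log2 change -0.23 to 0.06).

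Cdc25b was the only member that was more than 2.0-fold higher in Gr_1 (2.26-fold). It stood at 11.1, 11.2 and 11.4 FPKM in fl, 11.9, 9.30 and 9.39 in the KO-labelled libraries, and at 28.0, 24.4 and 23.8 in Gr_1 (log2 change 1.11 ± 0.10 SE, adjusted p = 2.61e-05). The gap between Gr_1 and the rest was wide against the spread within groups, and the gene was called in all 9 fits without 1 library. Cdc25c, a phosphatase of the same family, did not pass, at 7.72 ± 0.355 FPKM in fl and 7.07 ± 0.472 in Gr_1.

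The mitotic kinases and survivin changed in 1 direction. Plk1, Aurka, Aurkb and Birc5 (survivin, a partner of Aurora B) were all lower in Gr_1, by 1.37-fold to 1.48-fold. Aurkb stood at 42.0, 39.9 and 43.8 FPKM in fl, 38.0, 40.9 and 36.7 in KO, and at 30.6, 28.4 and 25.9 in Gr_1 (log2 change -0.55 ± 0.08 SE, adjusted p = 0.000292). Plk1, a kinase that acts from mitotic entry to cytokinesis, stood at 62.1, 59.2 and 64.4 FPKM in fl, 56.8, 57.6 and 58.7 in the KO-labelled libraries, and at 46.8, 46.5 and 41.9 in Gr_1 (log2 change -0.45 ± 0.06 SE, adjusted p = 0.000338). In each of the 4 genes the fl and Gr_1 libraries did not overlap, as in 8290 of the 12289 genes tested. Each was called in all 9 fits without 1 library.

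Of the spindle checkpoint genes, Bub1b was lower by 1.28-fold (adjusted p = 0.00547), while Bub1, at 15.1, 13.6 and 9.24 FPKM in fl and 9.84, 9.94 and 9.75 in Gr_1, and Ttk, at 5.88, 5.77 and 4.45 FPKM in fl and 4.59, 4.84 and 5.04 in Gr_1, did not pass. In both, fl A and fl B lay above Gr_1 and fl C lay below it. Ube2c, the ubiquitin-conjugating enzyme of the anaphase-promoting complex, was lower by 1.23-fold (adjusted p = 0.0075), and Cdc20 stood at 85.4, 83.4 and 98.6 FPKM in fl and 82.0, 79.1 and 76.0 in Gr_1 without passing (log2 change -0.17 ± 0.08 SE, adjusted p = 0.0788).

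No gene of the last role, chromosomes, kinetochore and spindle motors, passed the test: Top2a, Mki67, Cenpe, Cenpf and Kif11 had log2 changes from -0.10 (Top2a) to 0.24 (Cenpf). Top2a stood at 72.4, 68.3 and 50.1 FPKM in fl, 72.2, 68.7 and 70.3 in KO, and at 58.1, 60.9 and 56.7 in Gr_1. Kif11 stood at 45.8, 43.6 and 28.1 FPKM in fl, 47.6, 43.9 and 44.1 in the KO-labelled libraries, and at 37.6, 37.6 and 39.2 in Gr_1. Mki67, the gene of the Ki-67 antigen used to mark dividing cells, stood at 69.8, 61.7 and 42.8 FPKM in fl, 66.8, 64.1 and 66.9 in KO, and at 45.7, 62.8 and 57.7 in Gr_1. In these 5 genes fl C was the lowest of all 9 libraries, and the intervals were wide (for Kif11, -0.37 to 0.35).

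**Figure D3:**
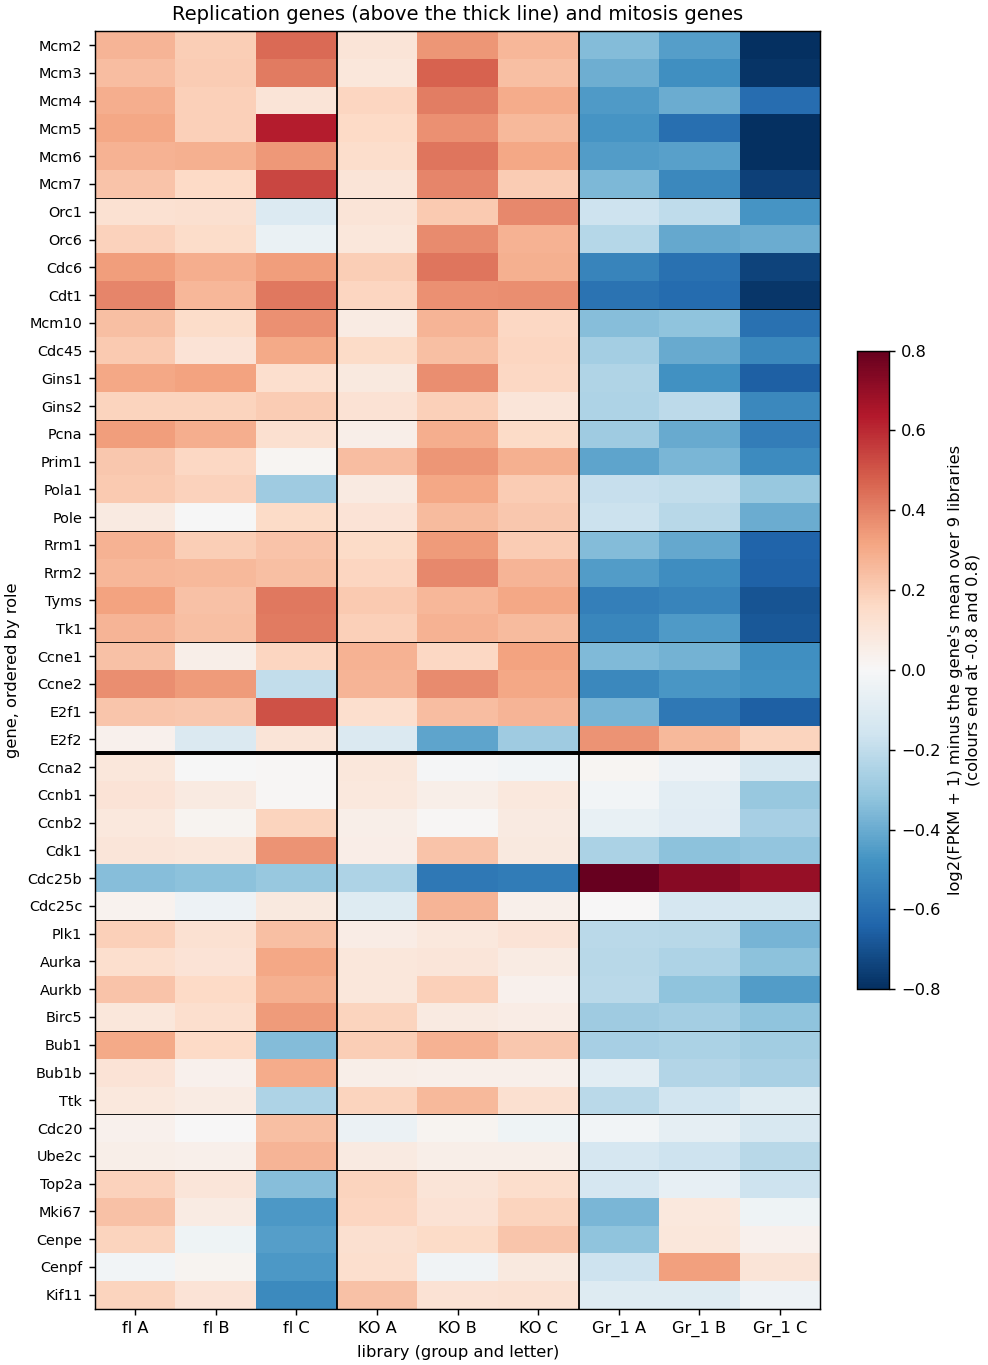
Log2(FPKM + 1) of each member minus its mean over the 9 libraries, with libraries as columns and genes as rows, ordered by role. Replication genes other than E2f2 are low (blue) in all 3 Gr_1 libraries, Cdc25b and E2f2 are high there, and fl C is low in Pola1, Ccne2, Bub1, Ttk and the last 5 mitosis genes.

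The low values of fl C went with the base composition of the transcripts. Across the 46 members, the difference of fl C from the mean of fl A and fl B correlated with the GC content of the longest transcript with a Spearman rho of 0.759, and across 12279 genes with 0.474. The points share the same 3 libraries, so the value is a description. The 9 members that lay more than 0.3 lower in fl C on log2(FPKM + 1) had a GC content of 36.3% to 46.6%, and 7 of them were mitosis genes. Kif11 lay lower by 0.65, Mki67 by 0.61, Bub1 by 0.58 and Ccne2 by 0.55, while Mcm5 lay 0.38 higher. Whether base composition lay behind these values was not tested.

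**Figure D4:**
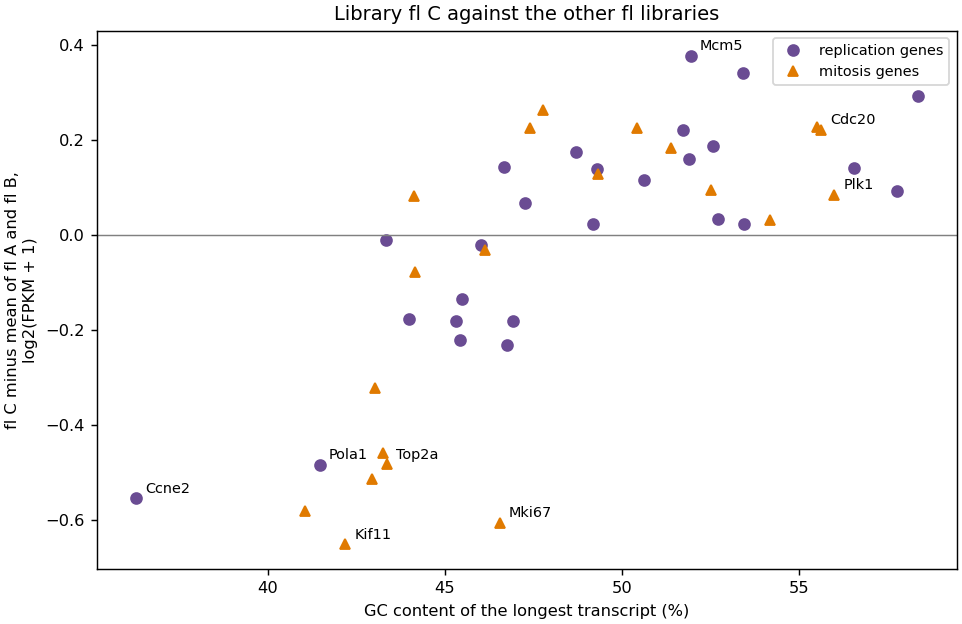
Difference of library fl C from the mean of fl A and fl B on log2(FPKM + 1) (vertical axis) against the GC content of the longest transcript in percent (horizontal axis), a point for each member, replication genes as circles and mitosis genes as triangles. Kif11 and Mki67 lie lowest and Mcm5 highest, and Spearman's rho over the 46 points is 0.759.

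Without fl C, Gr_1 was lower than fl in 25 replication genes and 12 mitosis genes, and E2f2 and Cdc25b were still higher. In that fit 3884 of the 12150 genes tested were lower and 3717 higher. Bub1 (log2 change -0.50, adjusted p = 0.000303), Top2a (-0.26, adjusted p = 0.00514), Kif11 (-0.22, adjusted p = 0.0108) and Ttk (-0.23, adjusted p = 0.0167) were then called lower, and Ccnb2 no longer was (-0.19, adjusted p = 0.0501). Mki67, Cenpe and Cenpf did not pass with or without fl C. Within Gr_1, library C was the lowest in 24 of the 26 replication genes and in 14 of the 20 mitosis genes, against 42.9% of all genes tested.

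The second comparison set the libraries labelled KO against fl, the contrast that the Socs3 label is about. None of the 46 members was called, where 11.0% of all genes tested were (limma, either direction). At an unadjusted p under 0.05 stood 1 replication gene, E2f2, and 1 mitosis gene, Ttk. The fit by voom on the recovered fragments also called 0, where it called 1621 of 12286 genes, with 1 and 1 at that level. Median log2 changes were -0.02 over the replication genes and -0.03 over the mitosis genes, against -0.01 over all genes. The 95% intervals of all 26 replication genes lay within 0.5 of 0 on the log2 scale, from -0.50 (E2f2) to 0.46 (Orc1), and those of 15 of the 20 mitosis genes did, with the highest bound at 0.63 (Cenpe). A p above the threshold does not show that the groups were alike, and the intervals give the sizes that remain possible.

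E2f2 had the smallest adjusted p, at 1.22-fold lower in the libraries labelled KO (log2 change -0.28 ± 0.10 SE, adjusted p = 0.1). It was called only when KO A was left out. Its values (given above) did not overlap between the groups, but the nearest, those of fl B and KO A, were alike to the digits printed. Ttk, the checkpoint kinase also called Mps1, stood at 6.34, 6.75 and 6.08 FPKM in the libraries labelled KO and did not overlap with fl (log2 change 0.22 ± 0.10 SE, adjusted p = 0.184). Without fl C, whose Ttk value was the lowest, that change was 0.11 (adjusted p = 0.334). Prim1 stood at 14.0, 13.5 and 12 FPKM in fl and at 14.3, 15.5 and 14.7 in the libraries labelled KO, again with no overlap (log2 change 0.16 ± 0.07 SE, adjusted p = 0.193). Orc6, of the origin recognition complex, had a log2 change of 0.16 ± 0.10 SE (adjusted p = 0.355). In all, 2 replication genes and 3 mitosis genes had groups that did not overlap, where 31.4% of all genes tested did.

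Other members were chosen for their level or for a change near 0. Rrm1 had the same mean to 3 digits, 27.9 ± 0.85 FPKM in fl and 27.9 ± 1.95 in the libraries labelled KO. Rrm2 stood at 133 ± 1.21 and 135 ± 9.94 FPKM, and Pcna at 172 ± 12.7 and 162 ± 13.8. Ccnb1 stood at 28.7, 28.0 and 26.8 FPKM in fl and at 28.2, 27.6 and 28.3 in the libraries labelled KO, a log2 change of 0.01 ± 0.08 SE. Cdc20, Ccnb2 and Aurkb had log2 changes of -0.11, -0.05 and -0.12, none of which passed.

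The largest changes among mitosis genes, those of Cenpe (0.27 ± 0.16 SE, adjusted p = 0.333), Kif11 (0.23), Ttk (0.22), Cenpf (0.21) and Mki67 (0.21), were in genes that were low in fl C. Without fl C they were 0.09, 0.02, 0.11, 0.06 and 0.01. The log2 changes of this comparison had a Spearman rho of -0.763 with GC content across the 46 members, and of -0.23 across all genes. With KO C left out, 0 replication and 0 mitosis genes were called, where 573 of the 12175 genes tested were. With fl C and KO C both left out the counts were again 0 and 0, where 452 of 12019 genes were called.

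The libraries labelled KO differed among themselves in a way that the replication genes shared. KO A was the lowest of the 3 in 23 of the 26 replication genes and KO B the highest in 20, against 36.1% and 38.9% of all genes tested. Mcm3 stood at 52.3, 68.3 and 58.0 FPKM in KO A, B and C, and Mcm6 at 53.5, 65.6 and 60.2. In the same order, early granulocyte genes summed to 3103, 6571 and 4929 FPKM and late neutrophil genes to 3108, 1308 and 2193 FPKM, so KO A had the lowest early and the highest late sum. KO C also lay between KO A and KO B in Xist and in Y-linked transcripts, as given with the library facts. The spread within KO rests in part on KO C, and what lay behind this order was not tested. Mitosis genes showed no such order, since KO A was lowest in 6, KO B in 9 and KO C in 5 of the 20. The median coefficient of variation of a mitosis gene was 3.46% within KO, 9.55% within fl and 5.59% within Gr_1, and that of a replication gene 8.17%, 7.46% and 9.14%.

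The third comparison set the libraries labelled KO against Gr_1. It shares its libraries with both comparisons above and is given for its values. Higher in the libraries labelled KO were 25 replication genes and 10 mitosis genes (26.7% of all genes tested), and lower were E2f2 and Cdc25b (28.9% of all genes tested). The median log2 change was 0.74 over the replication genes, 0.24 over the mitosis genes and 0.01 over all genes. Among replication genes Cdc6 had the largest fold, 2.06-fold higher (log2 change 0.93 ± 0.08 SE), followed by Cdt1 at 2.02-fold and Tyms at 1.94-fold, each with an adjusted p of 4.98e-05. Pola1, the member not called between Gr_1 and fl, was 1.44-fold higher here (adjusted p = 0.024), a call lost in 4 of the 9 fits without 1 library.

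Among mitosis genes, Cdc25b was 2.49-fold lower in the libraries labelled KO than in Gr_1 (log2 change -1.24 ± 0.10 SE, adjusted p = 4.11e-05). Aurkb was 1.36-fold higher, Plk1 1.28-fold higher and Bub1 1.45-fold higher (adjusted p = 0.0165). Top2a stood at 1.20-fold and Cenpf at 0.967-fold of Gr_1, and neither passed. Ccnb2 stood at 1.13-fold and Cdc20 at 1.04-fold, also without passing. With KO C left out, 24 replication genes and 7 mitosis genes were higher, where 2586 of the 12175 genes tested were.

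Other genes of the cell cycle were read from lists that hold none of the members. Of 47 other replication genes, 40 were lower and 1 higher in Gr_1 than in fl (31.4% and 30.0% of all genes), with a median log2 change of -0.47. Rpa3, of the single-strand binding protein, stood at 27.3, 28.2 and 27.8 FPKM in fl and at 17.4, 17.3 and 15.6 in Gr_1 (adjusted p = 1.94e-05), and Timeless, of the fork protection complex, was lower by 1.84-fold. Dck, deoxycytidine kinase of the nucleotide salvage pathway, was the higher one, at 37.4, 35.2 and 33.0 FPKM in fl and 58.7, 55.3 and 54.9 in Gr_1 (log2 change 0.66 ± 0.10 SE, adjusted p = 0.000416). Against fl, limma called 0 of these 47 genes in the libraries labelled KO (11.0% of all genes), with 1 at an unadjusted p under 0.05. Against Gr_1, 41 were higher there and 1 lower (26.7% and 28.9% of all genes). Cdc7, the kinase that fires origins, was 1.64-fold and Pold3, a polymerase delta subunit, 1.65-fold higher in that comparison.

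Of 90 other mitosis genes, 44 were lower and 2 higher in Gr_1 than in fl (31.4% and 30.0% of all genes), with a median log2 change of -0.24. Pkmyt1, a kinase that restrains Cdk1, stood at 23.1, 23.2 and 25.1 FPKM in fl and at 12.9, 13.9 and 13 in Gr_1 (log2 change -0.80 ± 0.06 SE, adjusted p = 1.07e-05), and Tacc3, a spindle protein, was lower by 1.5-fold. Hjurp, the chaperone of the centromeric histone, was 1.30-fold and Stag2, a cohesin subunit, 1.51-fold higher, and both calls were lost with library totals as the scale. In the libraries labelled KO, 1 of the 90 was called against fl, where 11.0% of all genes were: Racgap1, a cytokinesis gene. Racgap1 stood at 34.5 ± 0.983 FPKM in fl and 29.4 ± 1.21 in KO (adjusted p = 0.0456), a call held in 1 of the 9 fits without 1 library. Against Gr_1, 56 were higher and 3 lower (26.7% and 28.9% of all genes). Pkmyt1 and Cenph, a kinetochore gene, were 1.71-fold higher there each, while Pttg1 (securin), Hjurp and Pimreg were lower, Pttg1 by 1.41-fold and Hjurp by 1.20-fold. These 3 were named for their direction, and none was called in all 9 fits without 1 library.

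**Figure D5:**
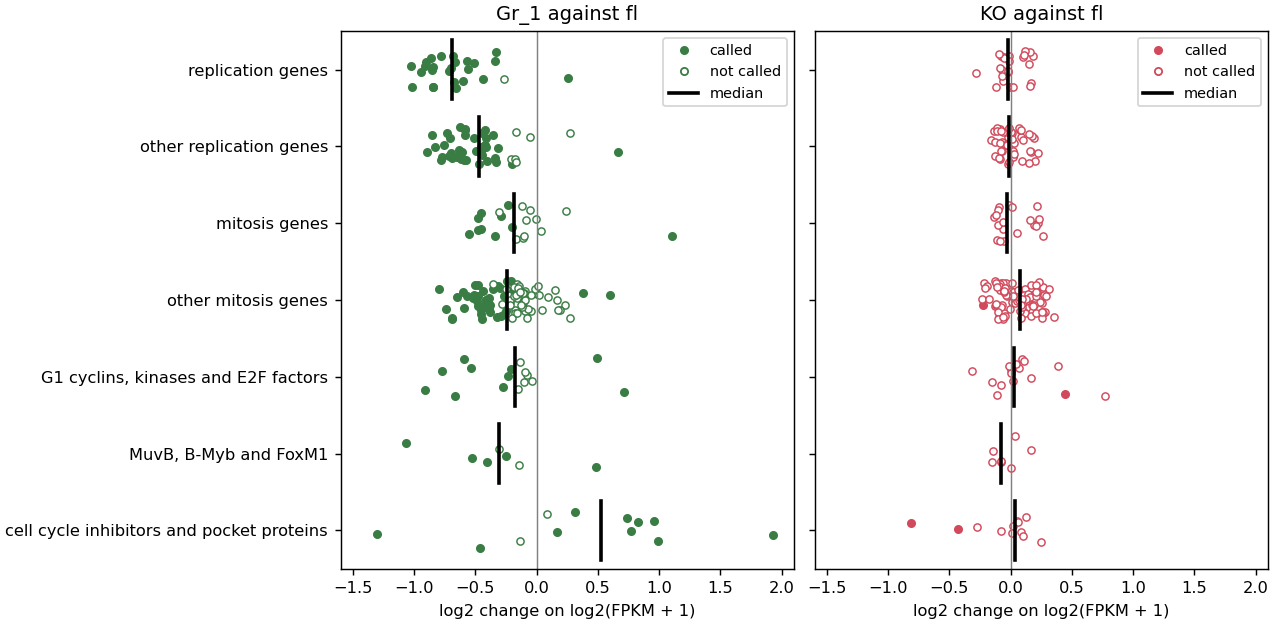
Log2 change of each tested gene (points, spread vertically for legibility) in 7 lists of cell cycle genes, for Gr_1 against fl on the left and the libraries labelled KO against fl on the right, with the median of each list as a black bar and called genes filled. For Gr_1 the medians run from -0.69 (replication genes) to 0.53 (inhibitors and pocket proteins), and for KO all 7 lie within 0.1 of 0.

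Of the cyclins, kinases and E2F factors of G1, 16 of 18 were tested. In Gr_1 against fl, 8 were lower and 2 higher (31.4% and 30.0% of all genes). That is 10 called of 16, where 7550 of all 12289 genes tested were called. Cdc25a, the phosphatase that activates the G1/S kinase, was lower by 1.93-fold (adjusted p = 4.23e-05) and E2f6, a repressive E2F factor, by 2.01-fold (adjusted p = 1.91e-05). The higher ones were D-type cyclins: Ccnd2 at 1.40, 1.82 and 1.89 FPKM in fl, 2.49, 2.88 and 2.64 in KO and 3.77, 3.49 and 2.99 in Gr_1, and Ccnd3 at 71.1 ± 13 FPKM in fl and 100 ± 8.78 in Gr_1, a call lost with library totals as the scale. Ccnd2 was also the only one of the 16 called between the libraries labelled KO and fl (1.57-fold higher, adjusted p = 0.0272), where 11.0% of all genes were. That call was kept in 5 of the 9 fits without 1 library. Against Gr_1, 10 of the 16 were higher in the libraries labelled KO and Ccnd3 was lower (26.7% and 28.9% of all genes).

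Of the MuvB complex and its partners B-Myb and FoxM1, 4 of 7 genes were lower in Gr_1 than in fl and 1 was higher (31.4% and 30.0% of all genes). Mybl2, which encodes B-Myb, stood at 18.8, 17.9 and 23.5 FPKM in fl, 17.3, 21 and 18.4 in KO and at 9.8, 9.12 and 8.16 in Gr_1 (log2 change -1.07 ± 0.12 SE, adjusted p = 7.12e-05). Foxm1 was lower by 1.20-fold (adjusted p = 0.0235, a call lost in 3 of the 9 fits without 1 library) and Rbbp4, a MuvB subunit, by 1.34-fold. Lin54, the subunit that binds the CHR, was 1.47-fold higher (adjusted p = 0.0017), a call lost with library totals as the scale. None of the 7 was called in the libraries labelled KO against fl, by limma, where 11.0% of all genes were. None stood at an unadjusted p under 0.05. Against Gr_1, 3 were higher there and Lin54 was lower (26.7% and 28.9% of all genes).

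The inhibitors of the cycle and the pocket proteins (Rb1 and its relatives) had more higher than lower genes. Of 12 tested, 8 were higher and 2 lower in Gr_1 than in fl (30.0% and 31.4% of all genes). Their summed level was 522 to 539 FPKM in fl, 454 to 506 in KO and 946 to 973 in Gr_1. Gadd45a, a stress-induced growth arrest gene, stood at 45.8, 44.9 and 36.7 FPKM in fl, 54.9, 46.2 and 50.4 in the KO-labelled libraries and at 163, 178 and 149.6 in Gr_1 (3.86-fold higher than in fl, adjusted p = 2.85e-06). Btg2, an antiproliferative gene, was 1.71-fold higher. Cdkn1a, which encodes p21, ran against its list, at 25.6, 23.8 and 21.1 FPKM in fl and 7.64, 7.24 and 12.6 in Gr_1 (log2 change -1.30 ± 0.18 SE, adjusted p = 0.000262), and so did the pocket protein gene Rbl1, lower by 1.41-fold.

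Against fl, 2 of these 12 were called in the libraries labelled KO, both lower, where 11.0% of all genes tested were called in either direction. Btg2 stood at 136, 126 and 137 FPKM in fl and at 100.3, 98.0 and 96.8 in the libraries labelled KO (log2 change -0.43 ± 0.07 SE, adjusted p = 0.00494), and its call held in all 9 fits without 1 library but not with fl C and KO C both left out. Cdkn1a stood at 11.7, 13.2 and 13.9 FPKM in the libraries labelled KO, 1.82-fold lower than in fl (adjusted p = 0.0215), a call kept in 5 of the 9 fits without 1 library. Against Gr_1, 6 of the 12 were lower and 2, Rbl1 and Cdkn1a, were higher there (28.9% and 26.7% of all genes). The call of Cdkn1a was kept in 3 of the 9 fits.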

How the data were processed

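RNA of 9 libraries, 3 per group, was sequenced as read pairs. Fragments were counted per gene with featureCounts 1.5.0-p3, and DESeq2 1.16.1 was used, per the submitters' processing notes, which name the builds mm10 and GRCm38. An aligner is named in none of the sources used here. The authors deposited FPKM values per gene, per the file headers. FPKM times exon length (GENCODE M21) gave whole fragments, within 0.02, for 97.2% to 97.5% of values under 1000 fragments, and totals of 18.3 to 21.5 M fragments. The scale of each library followed median-of-ratios size factors rather than these totals. Of the genes, 54495 matched that annotation and 37 did not.

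Genes that reached 1 FPKM in 3 or more libraries were tested on log2(FPKM + 1) with limma 3.58.1 (R 4.3.3), 1 fit over all 9 libraries with the group as the only term, which was tested on simulated data. Groups were read from the sample titles. The members and lists were chosen with earlier results of these data known. By the rule for named genes, each comparison and member list gave the 3 members with the smallest adjusted p, the 3 with the highest mean FPKM and those with the largest and smallest change, and every other list up to 2 called genes per direction. Further members were named by role. With 3 against 3 samples an exact two-sided permutation test cannot go below p = 0.1. Promoters are RefSeq's, on GRCm38.p6. A total of 19 alternatives were tried. Floors of 3 fragments at an exon length of 1 kilobase were 0.136 to 0.187 FPKM, for counting error only.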

Additional observations from a re-analysis of the deposited data

How the results depend on the processing

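Between KO and fl, 1352 genes were called as reported, 794 with only these groups in the fit, 452 with fl C and KO C left out together, and 573 to 1261 with 1 library left out (573 without KO C). Between Gr_1 and fl the count was 4869 under a stricter filter (mean of 5 FPKM, 6979 genes tested) and 6445 to 7601 with 1 library left out, and between KO and Gr_1 it was 4464 and 5577 to 7554. With fewer genes tested, fewer can be called.

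Of the members, 0 to 1 replication genes (E2f2, without KO A) and 0 mitosis genes were called between KO and fl when 1 library was left out. Between Gr_1 and fl these counts were 23 to 26 and 8 to 13, and between KO and Gr_1 25 to 26 and 8 to 14. Scaling to library totals was an alternative chosen after seeing the data, like the joint omission of fl C and KO C. It called 16 mitosis genes between Gr_1 and fl, where 8292 of the 12289 genes tested were called. Between KO and Gr_1 it called 19, where 8059 of all genes tested were called. The scale moved the median of all genes by design. Under it E2f2 changed sign for Gr_1 against fl (log2 change -0.033, adjusted p = 0.721 by limma). The share of calls that were higher went from 48.8% to 28.5% between Gr_1 and fl and from 48.0% to 74.9% between KO and Gr_1 with library totals, and from 40.8% to 58.5% for KO against fl without the 10 most abundant genes. Over 19 alternatives, single members between Gr_1 and fl kept their call, or stayed without one, in 814 cases. The call was lost in 33 and gained in 21, and in 1, that of E2f2, a called member changed sign. Members not called were counted as kept whatever their sign, such as Cenpe without fl C (log2 change -0.14). The cases include fits without a KO library, in which the change itself stayed as it was. The call of Ccnb1 was lost in 12 alternatives, that of E2f2 in 9, that of Orc1 in 8 and that of Ccnb2 in 4.

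With the replicate letter as a replicate block, limma called 1037 genes between KO and fl, 7280 between Gr_1 and fl and 6469 between KO and Gr_1. Members called were 0 and 0, then 24 replication and 9 mitosis genes, then 26 and 8. Same-letter libraries correlated at -0.062 to 0.140 in their deviations from group means, so the letters were not taken as pairs. Depth limits the low members most, Orc1 with 54 fragments in 1 library.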
